A study of Mus musculus with 6 samples.

Results

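The p53 and growth arrest genes examined here are Cdkn1a, Mdm2, Fas, Sesn1, Gadd45a, Gadd45b, Gadd45g, Ccng1, Zmat3 and Trp53inp1, 10 genes taken by symbol from a table of 34250 rows. They were compared between 3 libraries treated with fibrinogen, the plasma protein that forms clots, and 3 control libraries. All 6 libraries were labelled as oligodendrocyte progenitor cells (OPCs, which mature into myelin-forming cells) of wild-type C57BL/6 brain. The study's methods describe primary cortical cultures from newborn pups, from which microglia were shaken off, in a medium with hydrocortisone and growth factors shared by both groups. The column names give the fibrinogen amount as 2.5 mg and number the libraries as mice, but the labels give no animal or culture for a library. The source and tissue are labelled only as brain. The p-values therefore cover only variation among the 6 libraries, part of which may be technical.

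The transcription factor p53 is held at a low level by the ubiquitin ligase that Mdm2 encodes and is stabilised when DNA is damaged or a cell is stressed. It then binds response elements built from a pair of half-sites and induces genes that stop the cell cycle, repair DNA, restrain growth signalling or start cell death. Several of these genes also answer to other signals, and in progenitors the inhibitor encoded by Cdkn1a is known for its part in leaving the cell cycle.

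The libraries held 36670999 to 44448983 assigned reads, with overlapping group ranges. The first principal component (51.4% of the variance) separated the groups and the second (22.6%) set control replicate 3 apart. Checked against markers, the data go against OPCs as the main content of the libraries, whatever their label. Whether the libraries hold a purified culture, a mixed culture or brain tissue cannot be told apart here. Values are RPKM (read counts scaled for exon length and for the assigned reads of a library). Summed RPKM of 10 OPC markers was 64.1 to 67.5 with fibrinogen and 46.1 to 48.8 in controls, with none of them at 0, while 10 neuronal markers summed to 1640 to 2046 with fibrinogen and 1736 to 1955 in controls. Snap25 and Camk2a, which mark neurons, averaged 581 and 461 RPKM in fibrinogen libraries and 644 and 556 RPKM in control libraries, and 1 of the 10 neuronal markers rose and 0 fell.

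Several marker lists moved with the groups. At an adjusted p under 0.05 (limma, Benjamini-Hochberg), 5.62% of all tested genes were called lower with fibrinogen and 5.87% higher. OPC markers rose for 5 of 9 tested genes and fell for 0. Of the 2 most abundant, Gpr17 rose (log2 change 0.81), and Ptprz1 did not pass at 0.29 (adjusted p = 0.0530). Oligodendrocyte markers rose for 4 of 9, 1 of which (Ugt8a) passed the filter only through its fibrinogen libraries, and Mobp did not pass (-0.21, adjusted p = 0.566). Microglial markers fell for 3 of 10 and rose for 1, summing to 105 to 118 RPKM with fibrinogen and 143 to 165 RPKM in controls. Ctss, C1qa and C1qb, the 3 that fell, summed to 46.2 to 52.1 RPKM with fibrinogen and 99.8 to 107.8 RPKM in controls, and the other 7 to 58.8 to 66.4 RPKM with fibrinogen and 43.7 to 58.99 RPKM in controls. The median log2 change of the microglial list was -0.04. Of its 10 genes, 4 were higher in every fibrinogen library than in any control and 3 were lower. Among all 14710 tested genes, 2555 were higher and 2606 lower in this way. Astrocyte markers fell for 3 of 10 and rose for 1, with Aldoc lower (-0.45) and Slc1a2 not passing (0.14, adjusted p = 0.375). Endothelial and mural markers rose for 3 of 10 and fell for 0, with Rgs5 (0.84) and Vtn (0.77) among the 3. The median log2 change of the endothelial and mural list was -0.01. In it 3 genes were higher in every fibrinogen library than in any control, and 1 (Pecam1, -0.41, adjusted p = 0.0653) was lower. Of 8 neutrophil and blood markers S100a9 and Ngp were called lower, but both passed the filter only through their control libraries, Hbb-bs did not pass (-0.39, adjusted p = 0.402), and the list summed to 8.17 to 12.6 RPKM with fibrinogen and 16.2 to 36.2 RPKM in controls. The part of these in the changes of the p53 and growth arrest genes was not tested, and in bulk RNA fewer cells of a type and less RNA per cell cannot be told apart.

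Of the 10 genes, 9 passed a filter of at least 1 RPKM in at least 3 libraries. At the same threshold, an adjusted p under 0.05, 5 of the 9 fell with fibrinogen (Cdkn1a, Fas, Sesn1, Gadd45a and Mdm2), 1 rose (Ccng1), and 3 did not pass the test (Gadd45b, Gadd45g and Zmat3). Among all 14710 tested genes, 11.5% passed, 5.62% as lower and 5.87% as higher. The groups did not overlap for 8 of the 9 tested genes, 6 lower and 2 higher, against 35.1% of all tested genes with no overlap between groups. The median log2 change of the 9 was -0.51, against -0.0077 over all tested genes. Fas passed the filter only through its control libraries. Without it 4 of 8 fell and 1 rose, the groups did not overlap for 7 of 8 (5 lower, 2 higher), and the median was -0.38. Leaving out control replicate 3, the library that stood apart, gave 5 lower and 1 higher over the 9 again. Leaving out any 1 of the others gave 4 lower, with 1 higher without fibrinogen replicate 2 and 0 higher without fibrinogen replicate 1 or 3 or control replicate 1 or 2. Over all genes, 1689 were called with all libraries and 466 to 948 without any 1 of those 5.

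**Figure D1:**
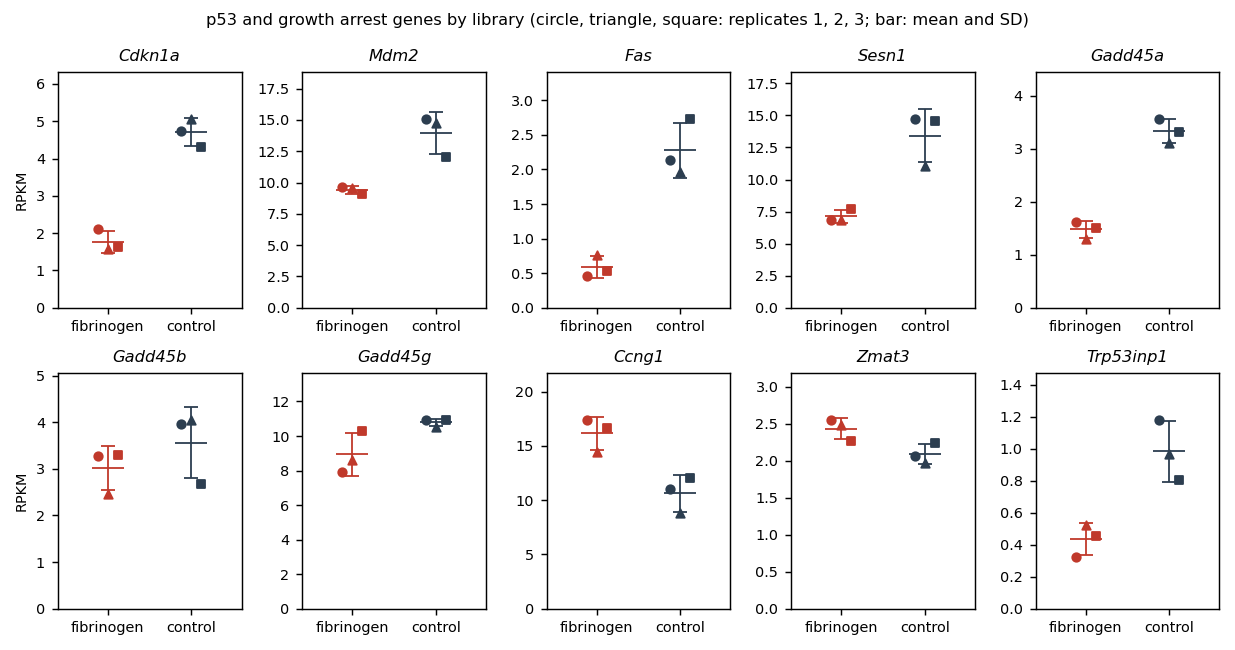
RPKM of the 10 genes (vertical axes, each from 0) in the 3 fibrinogen libraries (red, left) and the 3 control libraries (dark blue, right). Symbols are replicates, and bars are the mean and SD. The groups are separate for every gene except Gadd45b, with fibrinogen higher only for Ccng1 and Zmat3.

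The upstream sequences show which of these genes carry the letters of a p53 half-site, searched by its consensus of 10 letters. RefSeq promoter entries (GRCm38.p6, the build of the table) matched 8 of the 10 genes with 10 start sites, and the 250 bases before each start were searched on both strands. A half-site match was found in 5 of the 10 windows, against 7.13% of 32851 windows of all genes. It was also found in 6 of 32 windows of 25 other p53 target genes. The 5 windows belong to Cdkn1a, Gadd45a, Sesn1, Mdm2 and Ccng1, which are 4 of the genes that fell and the 1 that rose. Stretches of 60 bases around the matches follow, 5′ to 3′ on the strand of the gene, with the half-site letters in capitals.
Cdkn1a (chr17:29090892-29090951, + strand): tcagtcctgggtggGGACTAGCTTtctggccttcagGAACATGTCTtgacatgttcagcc
Gadd45a (chr6:67037413-67037472, - strand): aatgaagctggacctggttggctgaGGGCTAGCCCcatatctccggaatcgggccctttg
Sesn1 (chr10:41887241-41887300, + strand): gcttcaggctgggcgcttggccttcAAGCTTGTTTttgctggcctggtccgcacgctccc
Mdm2 (chr10:117710910-117710969, - strand): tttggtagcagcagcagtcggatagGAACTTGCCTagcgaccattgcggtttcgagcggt
Ccng1 (chr11:40755437-40755496, - strand): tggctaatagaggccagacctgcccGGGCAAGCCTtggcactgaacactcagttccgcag
Cdkn1a alone of these windows held 2 matches, which began 73 and 51 bases before the first of its 2 RefSeq starts. There were 12 bases between them. The 10 bases directly after GAACATGTCT, tgacatgttc, missed the consensus only in their first letter and were not counted. Which of these stretches act together was not tested. The window of the second Cdkn1a start, which lies inside the gene as the table gives it, held no half-site match. The half-site began 40 bases before the start in Gadd45a, 173 in Sesn1, 186 in Mdm2 and 185 in Ccng1. For Sesn1 it lay at the second of its 2 RefSeq starts, inside the gene as the table gives it.

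No half-site match lay in these windows of Fas, Gadd45b and Gadd45g. The other GADD45 genes held a TATA box (TATAAA), which 12.4% of all windows hold. It began 46 bases before the start in Gadd45b and 27 in Gadd45g, and is in capitals here.
Gadd45b (chr10:80930018-80930077, + strand): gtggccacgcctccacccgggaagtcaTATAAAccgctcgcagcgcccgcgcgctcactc
Gadd45g (chr13:51846615-51846674, + strand): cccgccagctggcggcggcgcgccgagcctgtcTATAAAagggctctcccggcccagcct
Of the other motifs searched, an AP-1 site (TGANTCA) was in 1 of the 10 windows, that of Fas, against 6.75% of all windows. A cAMP response element (TGACGTCA) and a glucocorticoid response element (GNACANNNTGTNC) were in 0 of the 10, against 1.55% and 0.387% of all windows. A CCAAT box was in 7 of the 10 and a GC box (GGGCGG) in 7 of the 10, against 33.8% and 32.7%, and GC boxes may overlap one another. These are matches of letters only, and binding was not measured.

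Mdm2, the gene of the ligase that marks p53 for degradation and itself a p53 target, lies at chr10:117688888-117710758 on the minus strand. It was at 9.67, 9.58 and 9.08 RPKM in the fibrinogen libraries, against 15.1, 14.8 and 12.02 RPKM in the control libraries. Fibrinogen libraries were close together and all below the lowest control library, replicate 3. The mean was 9.44 ± 0.320 RPKM with fibrinogen and 14.0 ± 1.68 RPKM in controls (SD, n = 3 each), and the change was -0.51 ± 0.098 (SE) on the log2(RPKM + 1) scale (limma, adjusted p = 0.0222). The direction held in every alternative, but the call was lost when any 1 of fibrinogen replicates 1, 2 and 3 or control replicates 1 and 2 was left out (adjusted p = 0.0711, 0.0552, 0.0786, 0.0884 and 0.0732), with replicate number as a block (adjusted p = 0.0508) and at a threshold of 0.01.

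Cdkn1a encodes p21, the inhibitor of cyclin-dependent kinases that carries much of the p53 cell cycle arrest. The gene lies at chr17:29090979-29100722 on the plus strand. Its values were 2.11, 1.59 and 1.62 RPKM with fibrinogen, against 4.74, 5.06 and 4.31 RPKM in controls. The highest fibrinogen value lay well under the lowest control value, with 148 to 439 reads behind the gene in a library. The mean was 1.77 ± 0.293 RPKM with fibrinogen and 4.70 ± 0.372 RPKM in controls (SD, n = 3 each), a ratio of controls to fibrinogen of 2.65. On the log2(RPKM + 1) scale Cdkn1a changed by -1.04 ± 0.10 (SE, 95% interval -1.29 to -0.80, limma adjusted p = 0.00317), and it was called lower in every alternative that tested it.

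Gadd45a, a stress sensor that binds PCNA and kinases upstream of p38 and JNK, lies at chr6:67035096-67037457 on the minus strand. Fibrinogen libraries had 1.62, 1.30 and 1.51 RPKM of it, and control libraries 3.56, 3.11 and 3.32 RPKM. All control values were above all fibrinogen values, on 102 to 250 reads in a library. The log2(RPKM + 1) change was -0.80 ± 0.092 (SE, limma adjusted p = 0.00479) and was called in every alternative that tested it.

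Its paralogs Gadd45b and Gadd45g, which respond to cytokine and differentiation signals in many tissues, did not pass the test. Gadd45b (chr10:80930091-80932204, plus strand) had 3.27, 2.47 and 3.30 RPKM in fibrinogen libraries and 3.97, 4.05 and 2.68 RPKM in control libraries. The groups overlapped, and control replicate 3 lay among the fibrinogen values. Its log2 change was -0.18 ± 0.15 (SE, 95% interval -0.54 to 0.18, limma adjusted p = 0.484), and without control replicate 3 it was -0.33 (adjusted p = 0.113). Gadd45g (chr13:51846678-51848468, plus strand) had 7.90, 8.61 and 10.3 RPKM in fibrinogen libraries and 10.9, 10.5 and 10.9 RPKM in control libraries. The groups did not overlap, but fibrinogen replicate 3 lay just under the lowest control. Its log2 change was -0.25 ± 0.099 (SE, 95% interval -0.49 to -0.02, limma adjusted p = 0.142).

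Read as shares of the family's summed RPKM, Gadd45a made up 12.7, 10.5 and 10.03% with fibrinogen and 19.3, 17.6 and 19.6% in controls. These shares did not overlap, while those of Gadd45b and Gadd45g did. The sum of the 3 genes was 13.4 ± 1.46 RPKM with fibrinogen and 17.7 ± 0.771 RPKM in controls (SD, n = 3 each), and Gadd45g was the most abundant of them in every library. An exact permutation test of 3 shares against 3 cannot go below 0.1, and the differences in share were not tested.

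Sesn1 encodes sestrin 1, a p53 target that restrains mTORC1 through the GATOR complexes. It lies at chr10:41809935-41908424 on the plus strand. Values were 6.88, 6.81 and 7.68 RPKM in fibrinogen libraries and 14.7, 11.0 and 14.6 RPKM in control libraries. The fibrinogen libraries were tight and the control libraries spread, with replicate 2 the lowest, and no values overlapped. The mean was 7.12 ± 0.485 RPKM with fibrinogen and 13.4 ± 2.08 RPKM in controls (SD, n = 3 each), and the log2 change was -0.82 ± 0.12 (SE, limma adjusted p = 0.0101), called in every alternative run but that with the stricter threshold of 0.01.

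Among the sestrins, Sesn1 made up 53.3, 53.3 and 53.6% of the summed RPKM with fibrinogen and 68.1, 62.7 and 67.9% in controls. Sesn3 made up 39.1 ± 0.593% with fibrinogen and 27.2 ± 2.85% in controls (SD, n = 3 each), with separate groups too. On its own level Sesn3 averaged 5.21 RPKM in fibrinogen libraries and 5.45 RPKM in control libraries, and its log2 change was -0.06 (limma adjusted p = 0.683). The family's sum was 13.3 ± 0.860 RPKM with fibrinogen and 20.2 ± 2.27 RPKM in controls.

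**Figure D2:**
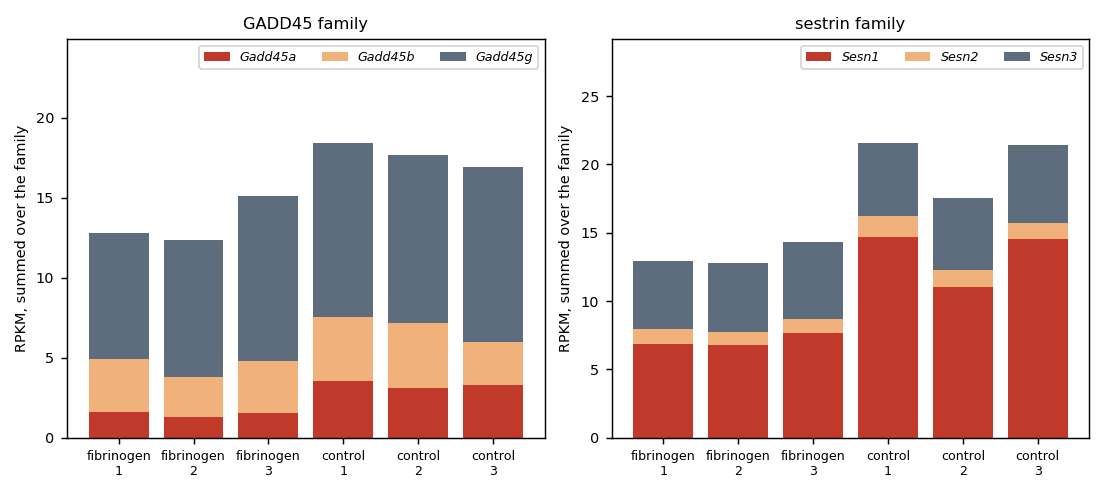
Stacked RPKM of the GADD45 genes (left panel) and the sestrin genes (right panel) in each library, fibrinogen libraries left of control libraries. The lowest segments, Gadd45a and Sesn1, are shorter in every fibrinogen library than in any control library, while Sesn3 on top is of similar height throughout.

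Fas, the death receptor whose ligation starts caspase 8 activation, was the scarcest tested gene of the set in the fibrinogen libraries and lies at chr19:34290659-34327770 on the plus strand. It was at 0.454, 0.762 and 0.539 RPKM with fibrinogen, against 2.13, 1.96 and 2.73 RPKM in controls. Every fibrinogen value was under 1 RPKM and every control value above it, on 30 to 210 reads in a library. The mean was 0.585 ± 0.159 RPKM with fibrinogen and 2.27 ± 0.402 RPKM in controls (SD, n = 3 each). The log2(RPKM + 1) change was -1.04 ± 0.13 (SE, limma adjusted p = 0.00601), called in every alternative that tested it, on a scale that understates the change of so low a gene. With voom on the whole reads recovered from the RPKM values the log2 change was -1.95.

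Trp53inp1, a p53 target that takes part in autophagy and cell death, was the member below the filter (chr4:11156431-11174379, plus strand). Its values were 0.324, 0.525 and 0.457 RPKM with fibrinogen, against 1.18, 0.969 and 0.802 RPKM in controls. Only 1 library, control replicate 1, reached 1 RPKM, though the groups did not overlap and 77 to 292 reads lay behind the values. With no filter its log2(RPKM + 1) change of -0.46 did not pass (limma adjusted p = 0.0858). With voom on genes of at least 10 reads in at least 3 libraries, an alternative chosen after seeing the data, the log2 change was -1.16 ± 0.23 (SE, adjusted p = 0.0156).

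Ccng1 moved the other way. It encodes cyclin G1, a p53 target that brings a phosphatase to MDM2, and lies at chr11:40748552-40755311 on the minus strand. Fibrinogen libraries held 17.4, 14.5 and 16.7 RPKM, and control libraries 11.1, 8.79 and 12.1 RPKM. Replicate 2 was the lowest of each group, and the lowest fibrinogen value was above the highest control value. The mean was 16.2 ± 1.53 RPKM with fibrinogen and 10.6 ± 1.69 RPKM in controls (SD, n = 3 each), and the log2 change was 0.57 ± 0.13 (SE, limma adjusted p = 0.0334). The direction held in every alternative, but the call was lost with no filter (adjusted p = 0.0780), with the threshold of 0.01, and without fibrinogen replicate 1 or 3 or control replicate 1 or 2 (adjusted p = 0.112, 0.108, 0.0953 and 0.0734).

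Zmat3, which encodes an RNA-binding zinc finger protein induced by p53, had 2.55, 2.49 and 2.27 RPKM in fibrinogen libraries and 2.06, 1.97 and 2.24 RPKM in control libraries (chr3:32334792-32366014, minus strand). The groups were separated only by the small gap between replicates 3 of each. The log2 change was 0.15 ± 0.085 (SE, 95% interval -0.05 to 0.35, limma adjusted p = 0.276).

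**Figure D3:**
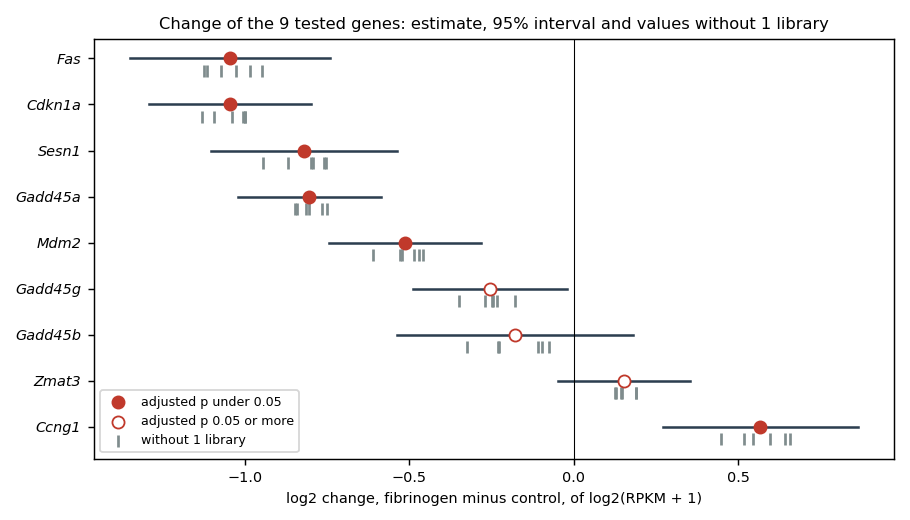
Change of the 9 tested genes in log2(RPKM + 1), fibrinogen minus control (horizontal axis), with the 95% interval (line), the call (filled or open circle) and the estimates with 1 library left out (ticks). Fas and Cdkn1a lie lowest at -1.04, Ccng1 highest at 0.57, and no tick crosses 0. The scale shrinks the changes of genes of low RPKM, so the order of the genes depends partly on their level. With voom on the recovered reads the log2 changes were -1.95 for Fas, -1.42 for Cdkn1a, -1.18 for Gadd45a, -0.90 for Sesn1 and 0.61 for Ccng1.

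By level per length, the order of the genes differed between the groups. With fibrinogen Ccng1 led at 16.2 RPKM, followed by Mdm2, Gadd45g and Sesn1 at 9.44, 8.93 and 7.12 RPKM, of which Mdm2 and Gadd45g overlapped. In controls Mdm2 and Sesn1 led at 14.0 and 13.4 RPKM with overlapping values, followed by Gadd45g and Ccng1 at 10.8 and 10.6 RPKM, which overlapped too. Ccng1 also overlapped with the leading genes. Its value in control replicate 3 (12.08 RPKM) was above Mdm2 there (12.02 RPKM) and above the lowest control value of Sesn1 (11.02 RPKM). Cdkn1a stood above Gadd45b, Gadd45a and Zmat3 in every control library, at 4.70 RPKM against 3.56, 3.33 and 2.09 RPKM. With fibrinogen Cdkn1a was below Gadd45b and Zmat3 in every library. It stayed above Gadd45a within each fibrinogen library, though the ranges of these genes overlapped.

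The tested genes whose values across the 6 libraries were most like those of Cdkn1a, centred on the control mean, were Ctss, Slc2a1, Fam107a, Pnpla2 and Sat1. Ctss encodes the lysosomal protease cathepsin S and Slc2a1 the glucose transporter GLUT1. Pnpla2 encodes a triglyceride lipase and Sat1 a polyamine acetyltransferase. The root mean square difference of Cdkn1a from them was 0.0931 for Ctss to 0.107 for Sat1 in log2(RPKM + 1). Ctss, the nearest and also one of the microglial markers, was at 39.6, 36.6 and 35.3 RPKM in fibrinogen libraries and 81.4, 79.6 and 63.5 RPKM in control libraries. They were picked for this pattern, so no test of it is given.

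Of 34 other p53 target genes 25 were tested, and 5 fell, 0 rose and 20 did not pass (voom called 6 lower and 0 higher), with a median log2 change of -0.13. Among all 14710 tested genes, limma called 5.62% lower and 5.87% higher, and voom called 988 lower and 1057 higher. The counts for p53 regulators and cell cycle genes below are to be read beside the same shares. Pstpip2 (-1.08, limma adjusted p = 0.00731), the repair gene Xpc (-0.61, 0.00953), Susd6 (-0.57, 0.00622) and the kinase gene Plk2 (-0.51, 0.0134) were the 4 of smallest p, and the other was Ankra2 (-0.34, 0.0368). Bax, which opens the mitochondrial membrane in cell death, averaged 9.04 ± 0.700 RPKM in fibrinogen libraries and 8.42 ± 0.755 RPKM in control libraries (SD, n = 3 each, limma adjusted p = 0.545).

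Of p53 and its regulators, 11 of 17 were tested and 1 fell, Rchy1, a p53 ubiquitin ligase (-0.49, limma adjusted p = 0.0104). Trp53, the gene of p53 itself, averaged 1.08 ± 0.114 RPKM in fibrinogen libraries and 1.64 ± 0.111 RPKM in control libraries (SD, n = 3 each), a log2 change of -0.35 that did not pass (limma adjusted p = 0.0593). With voom on the recovered reads Trp53 was called lower (-0.60, adjusted p = 0.0321), as was Rchy1. Bax, Trp53 and Ankra2 were picked after their values were seen. The phosphorylation and amount of the p53 protein were not measured.

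The cell cycle genes on which these proteins act follow. Among all 14710 tested genes, 11.5% passed limma's test and 4329 had an unadjusted p under 0.05. The counts of these short lists were not tested against those of all genes. Of 3 tested CDK inhibitors other than Cdkn1a 0 passed limma's test, 0 had an unadjusted p under 0.05 and 0 passed with voom, with Cdkn1b at -0.08 (adjusted p = 0.576) and Cdkn2d at 0.09 (adjusted p = 0.666). Of 10 tested cyclins, CDKs and pocket proteins 0 passed with limma or voom and 2 had an unadjusted p under 0.05, with Ccne1 at -0.26 (adjusted p = 0.228) and Pcna at 0.11 (adjusted p = 0.473). Of 18 proliferation genes 12 were below the filter, and of the 6 tested 1 fell, the replication helicase gene Mcm7 (-0.43, adjusted p = 0.0322). Mcm3, of the same helicase, did not pass with limma (0.35, adjusted p = 0.0596) and was called higher with voom (0.65, adjusted p = 0.0315), which also called Mcm7 lower. Below the filter, Mki67 and Top2a, which mark dividing cells, averaged 0.552 and 0.376 RPKM with fibrinogen and 0.384 and 0.139 RPKM in controls. The rest of these 12 genes went both ways. Tyms averaged 0.410 RPKM with fibrinogen and 0.278 RPKM in controls, and Cdc20 0.210 and 0.326 RPKM, both with overlapping groups. Mcm3, Mki67, Top2a, Tyms and Cdc20 were picked after their values were seen.

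The genes that work with the other members are given next, where 5.62% of all tested genes fell and 5.87% rose. An unadjusted p under 0.05 was reached by 4329 of the 14710 tested genes. Of 10 kinases that work with GADD45 proteins 2 fell (and 0 rose), namely Map2k3 (-0.56, limma adjusted p = 0.0402) and Map2k7 (-0.27, adjusted p = 0.0445), and voom called the same 2 lower and Mapk8 higher. In the Fas death pathway 1 of 8 tested genes fell, the initiator caspase gene Casp9 (-0.35, adjusted p = 0.0452), and voom called Bcl2l1, which encodes an inhibitor of cell death, lower as well. Of 10 tested sestrin paralogs and GATOR genes 0 passed with limma or voom, 1 had an unadjusted p under 0.05, and the most abundant, Sec13, was at 0.08 (adjusted p = 0.605). Of 4 further paralogs of the members 1 rose, Trp53inp2, with 6.00 ± 0.723 RPKM in fibrinogen libraries and 3.998 ± 0.324 RPKM in controls (SD, n = 3 each), a log2 change of 0.48 (adjusted p = 0.0291).

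Genes induced by glucocorticoids (12 listed with earlier results of these data known) all fell, 12 of 12. Their median log2 change was -1.03, and the largest changes among them were those of Fkbp5 (-2.25) and Sult1a1 (-2.10). Immediate early genes fell for 3 of 12 tested (Dusp1, Fosl1 and Junb) and rose for 0. Both counts stand beside 5.62% of all tested genes that fell and 5.87% that rose. The immediate early list summed to 137 to 145 RPKM with fibrinogen and 135 to 310 RPKM in controls, lowest in control replicate 3. Whether these changes bear on those of the p53 and growth arrest genes was not tested.

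**Figure D4:**
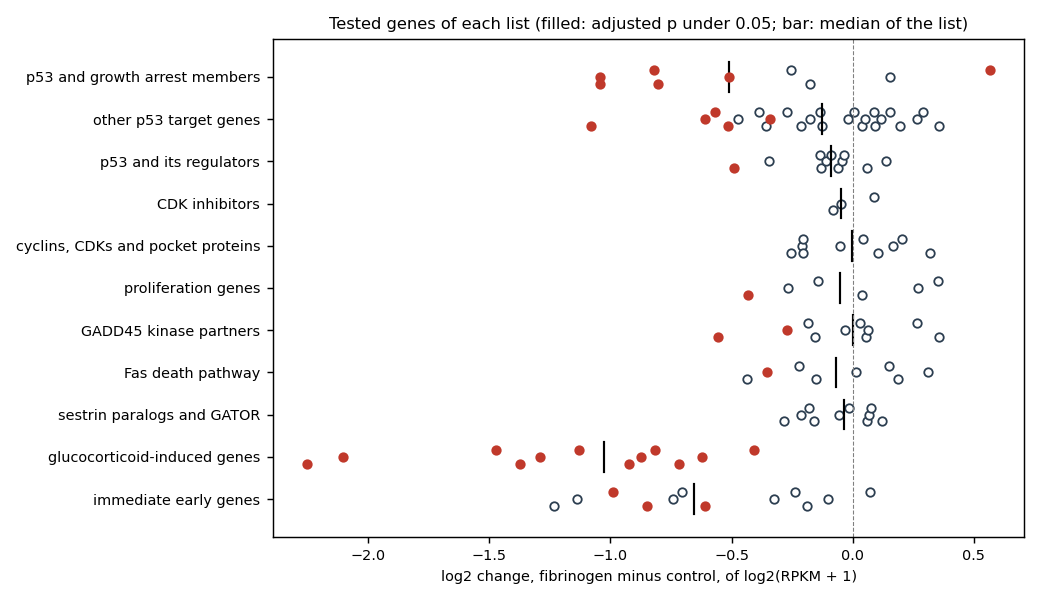
Change in log2(RPKM + 1), fibrinogen minus control (horizontal axis), of each tested gene of 11 lists, with the median as a bar and genes of adjusted p under 0.05 filled. The median of the p53 and growth arrest genes is -0.51 (-0.38 without Fas), that of other p53 targets -0.13 and that of glucocorticoid-induced genes -1.03.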

How the data were processed

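RNA was measured in 3 fibrinogen and 3 control libraries, grouped by their titles. Values were deposited by the authors as RPKM for each gene, from stranded mRNA libraries, with the exon length of the gene as a further deposited column. The submitters' processing notes name Trimmomatic 0.39, STAR 2.7.6a, featureCounts 1.5.1, edgeR 3.12.1 and GRCm38 (mm10), where the study's methods name another STAR release and GRCm39. Gene ends lay within 10 bases for 49.83% of 25667 symbols also in RefSeq for GRCm38.p6 (7 of the 10 members), against 1.84% of 29810 also in a GRCm39 annotation (0 of the 10), and coordinates are printed as the table has them. How strand and multiply mapped reads were handled is not given in the sources used here. Values of overlapping, antisense and paralogous genes are therefore uncertain.

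Reads were recovered by multiplying RPKM by exon length and dividing by the smallest product above 0 in the library, taken as 1 read. This gave whole reads for 100% of values above 0 (tolerance 0.001 reads). Depth, the sum of these reads, was 36670999 to 44448983 assigned reads in a library. In 26 rows the gene name had become a date, and these were tested but not named. A gene was tested if it reached 1 RPKM in 3 or more libraries (14710 genes), with limma 3.58.1 (R 4.3.3, trended prior variance) on log2(RPKM + 1), two-sided, with Benjamini-Hochberg adjustment over all of them and a threshold of 0.05. Changes are fibrinogen minus control, on a scale that shrinks those of genes of low RPKM, so medians of lists can depend partly on level. The test was tried on simulated data first. Alternatives were other pseudocounts, filters, scalings, prior variance and array weights, replicate number as a block, voom on recovered reads, a threshold of 0.01, and each library left out in turn.

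The members and the gene lists were chosen with earlier results of these data known. All 10 members are named, with up to 4 called genes of each other list by smallest p (or the 2 most abundant where none was called), the 5 genes most like Cdkn1a, leaving out predicted gene models, and the 2 most abundant markers of each cell type. Some markers under this rule are not reported here. Genes named outside this rule were picked after their values were seen. Replicate numbers were not treated as pairs, since the labels tie them to nothing shared. Promoter sequences are from RefSeq (GRCm38.p6).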

Additional observations from a re-analysis of the deposited data

How the results depend on the processing

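No member changed direction in any alternative. Cdkn1a, Fas and Gadd45a were called lower wherever tested, and Sesn1 in all but the stricter threshold. With no filter 935 genes were called (488 lower, 447 higher) and 0 members rose. With a mean of at least 5 RPKM 1052 genes were called (468 lower), and 3 of 4 tested members, 2 of them lower. Array weights gave 4041 calls (2034 lower, 2007 higher), with control replicate 3 given the lowest weight (0.322). At an adjusted p under 0.01 there were 320 calls (186 lower, 134 higher) and 3 members, 3 lower and 0 higher. With replicate number as a block there were 600 calls (316 lower, 284 higher) and 5 members, 4 lower and 1 higher. Deviations of same-numbered libraries correlated at 0.06, -0.24 and -0.07, and 0 libraries matched their own number best. With so few libraries in a group, this check cannot show whether the numbers stand for pairs. Leaving out 1 library gave 466 to 2300 calls (248 to 1118 lower, 216 to 1182 higher) and 4 to 6 members, 4 to 5 lower and 0 to 1 higher. The counts were 494, 948 and 576 without fibrinogen replicates 1, 2 and 3, 466 and 693 without control replicates 1 and 2, and 2300 without control replicate 3. Voom with at least 10 reads, chosen after seeing the data, called 7 members, 6 lower and 1 higher. Across all 14710 genes 4329 had an unadjusted p under 0.05. Depth limits Fas and Trp53inp1 most, which rest on as few as 30 and 77 reads in a library.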
